A study of Vitis x labruscana x Vitis vinifera with 36 samples.

Results

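The stilbene synthase family of 'Shine Muscat' grape berries is described here from 49 of the 30661 gene rows of a read count table. The members were taken by identifier alone, as 39 rows from VIT_16s0100g00750 to VIT_16s0100g01200 on chromosome 16 and 10 rows from VIT_10s0042g00840 to VIT_10s0042g00930 on chromosome 10, the family's 2 tandem arrays. The table pairs no identifier with a product, so the family name came with these ranges and was not checked against a sequence here. Copies of the family are close relatives of each other, reads may be shared between them, and the sources used here do not give how reads with several matches were counted. Sums over the arrays are therefore given first, and values of single copies carry that limit throughout. If reads with several matches were left out of the counts, the sums lack them too, so the sums are also limited.

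Stilbene synthase uses coumaroyl-CoA and malonyl-CoA, the same substrates as chalcone synthase, to make resveratrol, the parent compound of the grapevine stilbenes. Chalcone synthase instead leads to flavonoids. In grapevine, stilbenes are known as antimicrobial compounds that build up after infection, ultraviolet light and wounding, and in the skin of ripening berries.

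'Shine Muscat' is a table grape, labelled as a cross of Vitis labruscana Bailey and Vitis vinifera L. Berries were seedless (called treated in the series title) or seeded (called nontreated), and skin and flesh were sampled at stages 1, 3 and 4. Each stage thus had seedless skin, seeded skin, seedless flesh and seeded flesh, 12 groups of 3 libraries. Neither the agent nor the stage dates are stated in the labels, nor is the origin of the replicates (separate vines, or not), so a p-value reflects the spread of these libraries, which may be technical. Total RNA libraries were made by Lasy-seq, which reads mainly the 3′ ends of transcripts. Depth ran from 1.12 to 5.36 M counts (M for mega) in skin and from 0.609 to 7.34 M in flesh, and the shallowest groups of each tissue were those of seeded berries at stage 1. Tissue identity was not checked with marker genes, since products are not paired with identifiers in the table.

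The family was read in skin and was close to absent from flesh. Of 3376 reads over the members, 3276 (97%) were in skin, although skin and flesh libraries had similar total depth, at 66.9 and 69.4 M counts. Pooled over libraries this was 49 CPM in skin (reads per M counts of a library, here scaled by TMM) and 1.4 CPM in flesh, a ratio of 35 (95% exact interval 28.7 to 43.1, for counting error only). A skin library held 34 to 644 member reads, against 0 to 27 in a flesh library. In CPM the skin libraries ran from 16.9 to 118 and the flesh libraries from 0 to 7.70, so that no flesh library reached the lowest skin library. By stage, the ratio of skin to flesh pooled over treatments was 26.8 (17.2 to 44.3) at stage 1, 47.1 (31.2 to 74.6) at stage 3 and 33.4 (25.7 to 44.3) at stage 4. Within treatments it was 18.6 (10.2 to 37.8) in seedless and 22.8 (11.9 to 50.1) in seeded berries at stage 1, both below the pooled value. At stage 3 it was 52.4 (29.7 to 102) in seedless and 37.2 (20.6 to 75.1) in seeded berries. At stage 4 it was 75.0 (47.8 to 125) in seedless and 14.1 (10.1 to 20.1) in seeded berries, so the pooled value there describes neither. The rows that border the chromosome 16 array, picked after their values were seen, were read in both tissues: VIT_16s0100g00740 had 718 reads in skin and 208 in flesh, and VIT_16s0100g01210 had 689 in skin and 239 in flesh. In bulk samples, fewer cells that make a transcript and less of it per cell cannot be told apart.

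The chromosome 16 array took 3327 of the reads and the chromosome 10 array 49. On chromosome 16, 30 of 39 members had at least 1 read and each of these had reads in skin, while 18 also had reads in flesh. The reads were uneven along the array: the 18 rows from VIT_16s0100g01000 onwards held 2822 reads, 84.8% of the array, and the 21 rows before them held 505, a division chosen after the values were seen. VIT_16s0100g01100 received 693 reads, VIT_16s0100g01030 received 687 and VIT_16s0100g01200 received 595, together 58.5% of all member reads. VIT_16s0100g01190 followed with 246 and VIT_16s0100g01000 with 173. These are numbers of reads, which may be shared between copies, and do not order the copies by transcript level.

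On chromosome 10 the most read member, VIT_10s0042g00870, had 20 reads, all of them in skin. VIT_10s0042g00930 had 14 reads, all in skin, and VIT_10s0042g00890 had 6 in skin and 2 in flesh. VIT_10s0042g00900 had its 4 reads in flesh and 0 in skin, the one member of the arrays with that pattern. VIT_10s0042g00860 had 2 reads and VIT_10s0042g00840 had 1, all in skin. None of these members passed the filter on low counts.

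No read fell on 13 members, which allows up to 0.0217 CPM each over the 36 libraries. These were VIT_16s0100g00760, VIT_16s0100g00870, VIT_16s0100g00940, VIT_16s0100g00960, VIT_16s0100g00970, VIT_16s0100g00990, VIT_16s0100g01010, VIT_16s0100g01060 and VIT_16s0100g01080 on chromosome 16, and VIT_10s0042g00850, VIT_10s0042g00880, VIT_10s0042g00910 and VIT_10s0042g00920 on chromosome 10. A further 29 members had reads but too few to be tested. Besides the 6 of chromosome 10, these were 23 copies of chromosome 16 with 2 to 79 reads and a median of 16. VIT_16s0100g00950, VIT_16s0100g00750 and VIT_16s0100g01070 had 79, 75 and 70 reads. VIT_16s0100g00780, VIT_16s0100g00860, VIT_16s0100g01020, VIT_16s0100g01110 and VIT_16s0100g01140 had 53 to 61, and VIT_16s0100g00830, VIT_16s0100g00880 and VIT_16s0100g01130 had 25 to 35. VIT_16s0100g00800, VIT_16s0100g00810, VIT_16s0100g00900, VIT_16s0100g01120 and VIT_16s0100g01160 had 11 to 16, and the remaining 7 (VIT_16s0100g00840, VIT_16s0100g00850, VIT_16s0100g00910, VIT_16s0100g00920, VIT_16s0100g00930, VIT_16s0100g01040 and VIT_16s0100g01150) had 2 to 7. The filter on low counts left 7 members in skin, which held 78.4% of all member reads, and 0 in flesh.

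**Figure D1:**
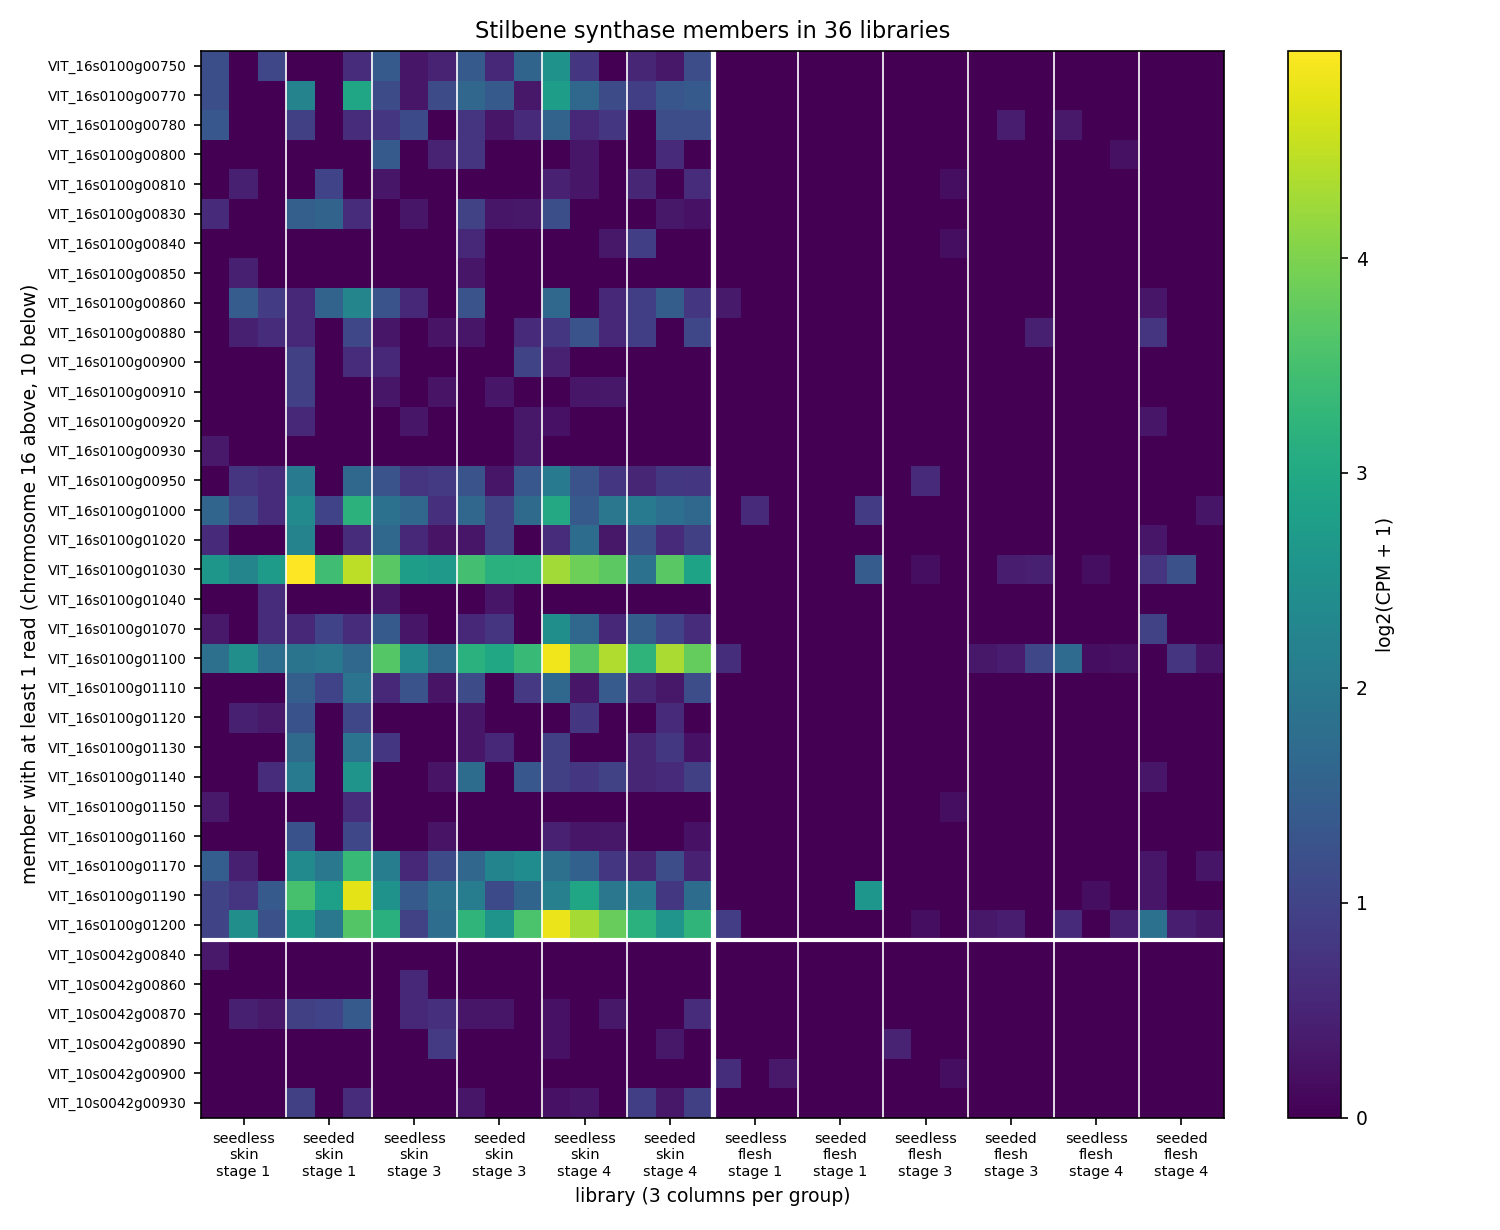
Level of each of the 36 members with at least 1 read (rows, chromosome 16 above chromosome 10) in the 36 libraries (columns, 3 per group), as log2(CPM + 1). Reads lay in the 18 skin columns on the left, above all in VIT_16s0100g01030, VIT_16s0100g01100 and VIT_16s0100g01200, and were scattered in the 18 flesh columns.

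In skin, the summed level was low in seedless and high in seeded berries at stage 1 and had the opposite order of means at stage 4. At stage 1 the seedless libraries had 19.9, 19.1 and 16.9 CPM, against 86.1, 33.7 and 111 CPM in the seeded libraries. The groups did not overlap, with means of 18.6 ± 1.54 CPM in seedless and 76.8 ± 39.3 CPM in seeded skin (SD, n = 3 each). The seeded libraries were the shallower ones, at 1.12 to 2.38 M counts against 2.96 to 4.02 M, and the lowest of them in CPM was also the shallowest, with 34 member reads.

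At stage 3 the seedless libraries had 56.5, 21.5 and 19.9 CPM and the seeded libraries 49.4, 31.0 and 45.6 CPM. These groups overlapped, and seedless replicate 1 stood apart from the other two of its group, with 238 member reads against 92 and 99. Without it the seedless mean was 20.7 CPM. At stage 4 the seedless libraries had 118, 67.3 and 59.4 CPM, against 35.9, 51.1 and 45.5 CPM in the seeded libraries. The groups did not overlap, with means of 81.5 ± 31.6 CPM in seedless and 44.2 ± 7.72 CPM in seeded skin (SD, n = 3 each). Without seedless replicate 1, the highest library, the seedless mean was 63.4 CPM. As a sum over chosen members, these levels have no test.

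Over the stages the mean of the summed level was highest at stage 4 in seedless skin and at stage 1 in seeded skin. Seedless skin averaged 18.6 ± 1.54 CPM at stage 1, 32.6 ± 20.7 CPM at stage 3 and 81.5 ± 31.6 CPM at stage 4. Seeded skin averaged 76.8 ± 39.3, 42.0 ± 9.69 and 44.2 ± 7.72 CPM at the same stages (SD, n = 3 each). In order of the mean, seedless skin at stage 4 and seeded skin at stage 1 were the highest groups and did not differ beyond their spread. The other 4 skin groups followed as seeded stage 4, seeded stage 3, seedless stage 3 and seedless stage 1, and the ranges of neighbours in this order overlapped except for the last pair, where seedless stage 3 began at 19.9 CPM and seedless stage 1 ended at 19.9 CPM.

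**Figure D2:**
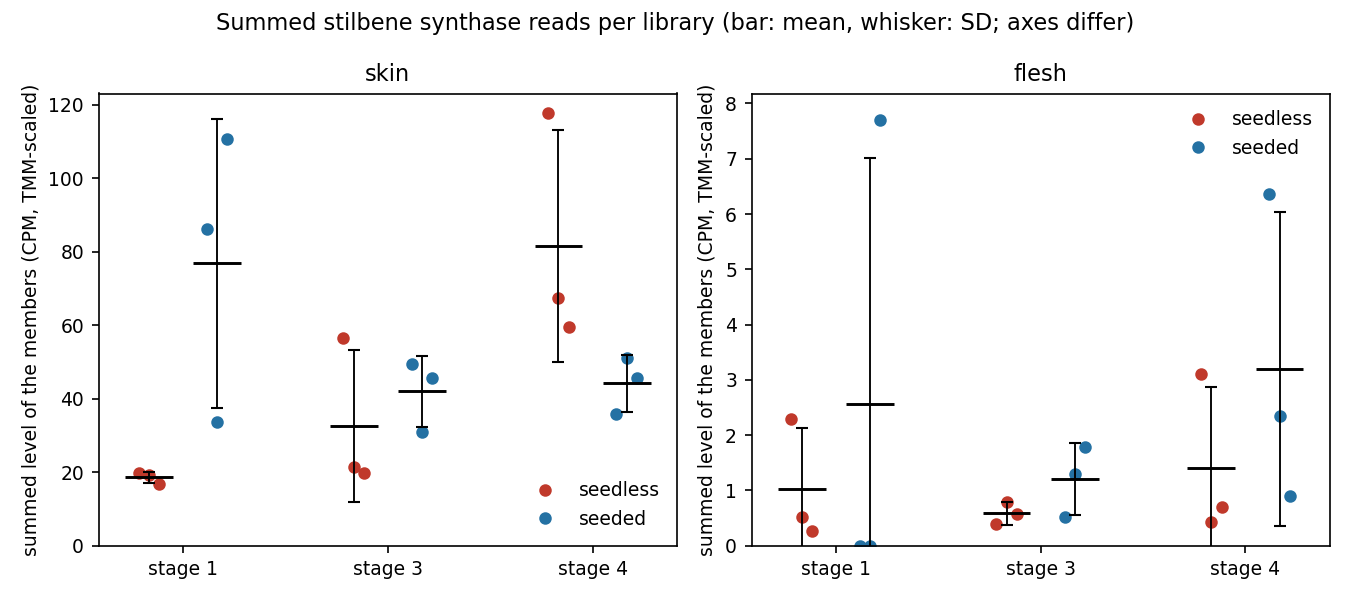
Summed level of the 49 members (CPM, scaled by TMM) in each library of skin (left) and flesh (right), by stage, for seedless and seeded berries. Points are libraries, bars are means and whiskers are SD, cut at 0, and the scales of the panels differ. Seedless skin lay below seeded skin at stage 1 and above it at stage 4, and every flesh library was at or below 7.70 CPM.

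In flesh the sums rest on few reads. Seedless flesh averaged 1.03 ± 1.1 CPM at stage 1, 0.584 ± 0.204 at stage 3 and 1.4 ± 1.48 at stage 4, from 11, 12 and 19 reads in all. Seeded flesh averaged 2.57 ± 4.45, 1.20 ± 0.648 and 3.20 ± 2.84 CPM (SD, n = 3 each), from 9, 11 and 38 reads. All 9 reads of seeded flesh at stage 1 came from replicate 3, and 27 of the 38 at stage 4 from replicate 1, which held reads of 10 members. Without the highest library of the group, the mean was 0.398 CPM in seedless flesh at stage 1, 0.556 in seedless flesh at stage 4, 0 in seeded flesh at stage 1 and 1.61 in seeded flesh at stage 4. The 3 copies with the most reads in all, VIT_16s0100g01030, VIT_16s0100g01100 and VIT_16s0100g01200, gave 57 of the 100 flesh reads. With 0 members past the filter in flesh, edgeR tested none there. With no filter, 20 members were tested in flesh and 1 was called between seedless and seeded berries, at stage 1: VIT_16s0100g01190, with 0 reads in seedless and 6 in seeded flesh, all 6 from seeded replicate 3 (edgeR adjusted p = 0.042).

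At stage 1, seedless against seeded skin was tested copy by copy with edgeR's quasi-likelihood test and Benjamini-Hochberg adjustment over all genes. Of the 7 tested copies, 4 were lower in seedless skin at an adjusted p below 0.05 and 0 were higher, where 9.87% of all 14193 tested genes were lower. VIT_16s0100g01190, VIT_16s0100g01030, VIT_16s0100g01170 and VIT_16s0100g00770 fell, and the other 3 did not pass. VIT_16s0100g00770 met the filter on low counts only with the help of its high seeded libraries of this stage. Its call therefore adds no support to the count. The median log2 fold change of the 7 was -2.12, against 0.02 over all tested genes.

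VIT_16s0100g01190 had 1.03, 0.694 and 1.63 CPM in seedless skin at stage 1, against 10.5, 5.94 and 26.2 CPM in seeded skin. Every seedless library was below every seeded one, and its log2 fold change was -3.65 ± 0.61 (SE; edgeR adjusted p = 2.1e-05). In seeded skin it took 12.2% to 23.6% of a library's member reads, against 3.64% to 9.68% in seedless skin.

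VIT_16s0100g01030 had 5.16, 3.82 and 5.72 CPM in seedless skin, against 30.2, 9.91 and 21.2 CPM in seeded skin at this stage. The groups did not overlap, with a log2 fold change of -2.12 ± 0.40 (SE; edgeR adjusted p = 0.00022). Its share of the member reads was 26.8% in seedless and 27.1% in seeded skin, so it differed between the groups by about as much as the sum. It was also one of the 2 members that still passed the filter with all libraries thinned to 608901 counts, where it was called again (-1.67 log2 units, edgeR adjusted p = 0.023).

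The other 2 calls rest on fewer reads. VIT_16s0100g01170 had 1.81, 0.347 and 0 CPM in seedless and 4.12, 2.97 and 9.26 CPM in seeded skin, from 8 and 29 reads (-2.86 ± 0.80 log2 units, SE; edgeR adjusted p = 0.0092). VIT_16s0100g00770 had 1.29, 0 and 0 CPM in seedless and 3.66, 0 and 6.54 CPM in seeded skin, from 5 and 20 reads (-2.93 ± 0.99, SE; edgeR adjusted p = 0.032). The groups overlapped for VIT_16s0100g00770 and not for VIT_16s0100g01170. Without seeded replicate 3 both calls were lost (edgeR adjusted p = 0.10 for VIT_16s0100g01170 and 0.21 for VIT_16s0100g00770), as they were without seedless replicate 3 (0.062 and 0.13). That of VIT_16s0100g00770 was also lost without seeded replicate 1 (0.073) and without seedless replicate 2 (0.098).

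VIT_16s0100g01000 and VIT_16s0100g01200 were lower in the mean without passing the test. VIT_16s0100g01000 had 2.06, 1.04 and 0.545 CPM in seedless and 4.12, 0.991 and 8.17 CPM in seeded skin, which overlapped (-1.93 ± 0.72 log2 units, SE; edgeR adjusted p = 0.051). It passed under DESeq2, with an adjusted p of 0.0404. VIT_16s0100g01200 had 1.03, 4.51 and 1.36 CPM in seedless and 5.50, 2.97 and 11.4 CPM in seeded skin (-1.70 ± 0.73, SE; edgeR adjusted p = 0.11). VIT_16s0100g01100 did not follow this pattern, with 2.58, 4.51 and 2.45 CPM in seedless and 2.75, 2.97 and 2.18 CPM in seeded skin (0.25 ± 0.70, SE; edgeR adjusted p = 0.85). It took 16.5% of the member reads of seedless and 3.06% of those of seeded skin. The copies too low for the test had together 4.75 ± 0.521 CPM in seedless and 19.6 ± 10.1 CPM in seeded skin (SD, n = 3 each), and 18 of the 24 that had reads at this stage had a lower mean in seedless skin. When no gene was filtered out, 9 members passed, all lower in seedless skin. The share of all genes for that fit is not given here, nor one for the 18 of 24, so neither count has a background beside it. The 9 were 6 of the 7 tested copies (not VIT_16s0100g01100), and VIT_16s0100g01110, VIT_16s0100g01130 and VIT_16s0100g01140, neighbours in identifier order but for VIT_16s0100g01120. VIT_16s0100g01110 and VIT_16s0100g01130 each had 0 reads in seedless and 10 in seeded skin (edgeR adjusted p = 0.0065 and 0.021). VIT_16s0100g01140 had 2 and 16 (edgeR adjusted p = 0.020). The part that depth has in these differences was not tested beyond the thinned counts above.

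**Figure D3:**
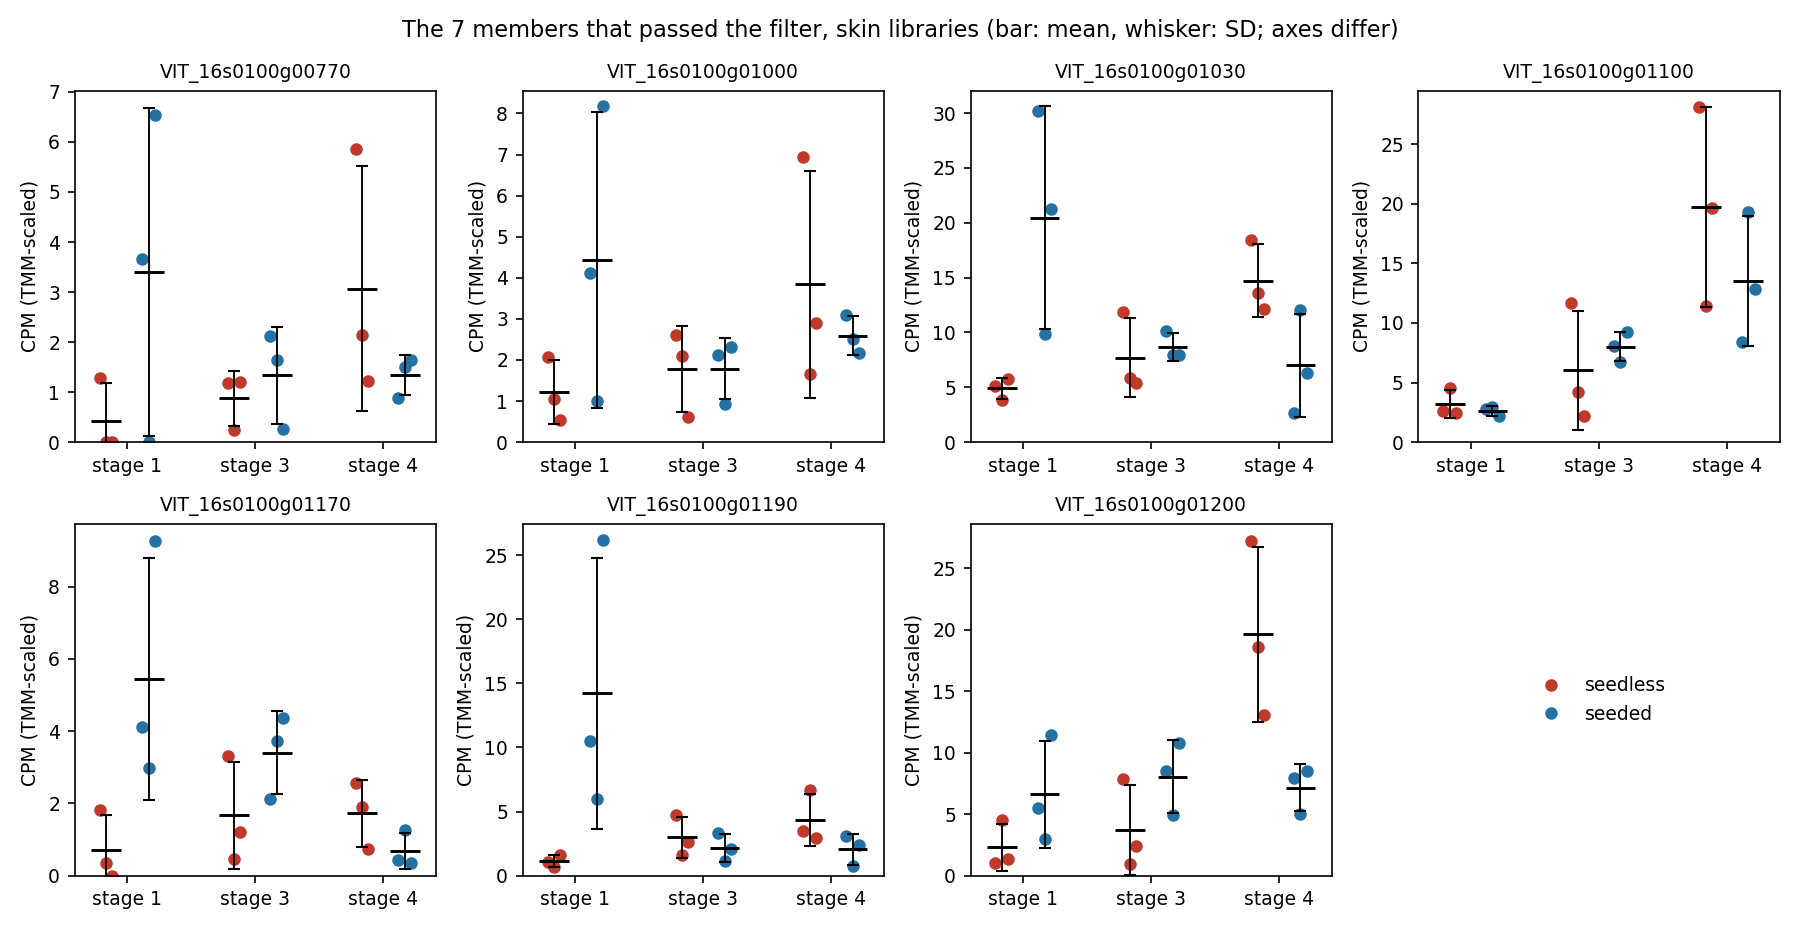
CPM (scaled by TMM) of the 7 tested members in each skin library at stages 1, 3 and 4, seedless and seeded. Points are libraries, bars are means and whiskers are SD, cut at 0, and the scales of the panels differ. VIT_16s0100g01190, VIT_16s0100g01030 and VIT_16s0100g01170 were lower in all 3 seedless than in all 3 seeded libraries at stage 1. VIT_16s0100g01200 was higher in all 3 seedless libraries at stage 4, as was VIT_16s0100g01030 by a narrow margin.

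At stage 3, 0 of the 7 copies passed the adjusted test between seedless and seeded skin, where 10.6% of all tested genes did. An unadjusted p below 0.05 was found for 0 of the 7. DESeq2 called 0 as well. Log2 fold changes ran from -1.12 ± 0.56 for VIT_16s0100g01200 to 0.45 ± 0.57 for VIT_16s0100g01190 (SE). VIT_16s0100g01200 had 7.84, 0.935 and 2.41 CPM in seedless and 8.51, 4.90 and 10.8 CPM in seeded skin. Seedless replicate 1, the library with the high sum, was the one that overlapped the seeded group: without it edgeR called VIT_16s0100g01200 (-2.20 log2 units, adjusted p = 0.0088) and VIT_16s0100g01100 (-1.33, adjusted p = 0.047), both lower in seedless skin.

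At stage 4, all 7 copies had a positive log2 fold change in seedless against seeded skin, from 0.52 to 1.46. The median was 1.11, against -0.007 over all tested genes. Reads may be shared between the copies, so their signs need not be separate observations. VIT_16s0100g01000 stood at -0.15 without seedless replicate 1. Of the 7 copies, 0 passed the adjusted test, against 3.48% of all tested genes. At an unadjusted p below 0.05 there were 2, VIT_16s0100g01200 and VIT_16s0100g01030, and the share of all genes at that threshold is not given here. DESeq2 called 0 of the 4 to which it gave an adjusted p. VIT_16s0100g01200 had 27.2, 18.6 and 13.1 CPM in seedless and 7.97, 5.01 and 8.53 CPM in seeded skin. The groups did not overlap, and the difference was 1.46 ± 0.50 log2 units (SE; edgeR adjusted p = 0.13). VIT_16s0100g01030 had 18.5, 13.6 and 12.1 CPM in seedless and 2.66, 12 and 6.35 CPM in seeded skin, a difference of 1.00 ± 0.36 (SE; edgeR adjusted p = 0.13). Its groups did not overlap either, by a narrow margin. With no gene filtered out, edgeR called VIT_16s0100g01200 (adjusted p = 0.00069) and VIT_16s0100g01030 (adjusted p = 0.033), and VIT_16s0100g01030 also passed without seeded replicate 2 (edgeR adjusted p = 0.025).

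VIT_16s0100g01100 had 28.1, 11.4 and 19.7 CPM in seedless and 8.41, 19.3 and 12.9 CPM in seeded skin at stage 4 (0.52 ± 0.38 log2 units, SE; edgeR adjusted p = 0.56). Its groups overlapped. The remaining tested copies stayed under 7 CPM in every stage 4 library. The untested copies had together 14.4 ± 9.49 CPM in seedless and 9.77 ± 1.31 CPM in seeded skin (SD, n = 3 each), which overlapped.

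**Figure D4:**
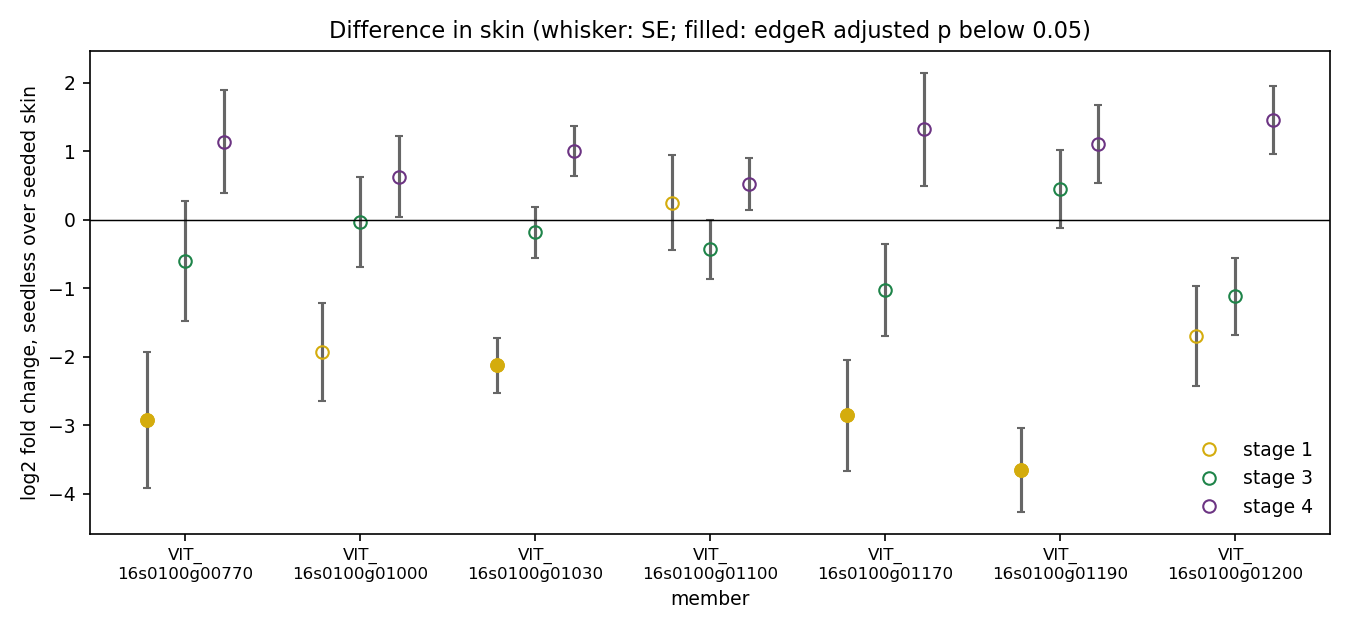
Log2 fold change of seedless over seeded skin for the 7 tested members at stages 1, 3 and 4. Whiskers are SE, and filled points passed edgeR's adjusted p of 0.05. The 4 filled points, all at stage 1, lie between -3.65 and -2.12, and the stage 4 points lie between 0.52 and 1.46.

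Whether the difference between seedless and seeded skin itself changed over the stages was tested as an interaction. Between stages 1 and 3, 2 of the 7 copies passed, both toward a higher seedless level, where 3.43% of all tested genes did. The difference of VIT_16s0100g01190 changed by 4.11 ± 0.84 log2 units (SE; edgeR adjusted p = 0.0012), with 4.75, 1.64 and 2.61 CPM in seedless and 3.31, 1.17 and 2.05 CPM in seeded skin at stage 3. That of VIT_16s0100g01030 changed by 1.94 ± 0.55 (SE; edgeR adjusted p = 0.025), with 11.9, 5.85 and 5.43 CPM in seedless and 10.2, 7.93 and 7.95 CPM in seeded skin at stage 3. The call of VIT_16s0100g01190 held with each of the 12 libraries left out in turn, with adjusted p from 0.00048 to 0.014. That of VIT_16s0100g01030 was lost in 6 of the 12, with adjusted p up to 0.11.

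Between stages 3 and 4, VIT_16s0100g01200 passed alone, with a change of 2.57 ± 0.75 log2 units (SE; edgeR adjusted p = 0.042), where 4.16% of all tested genes passed in this direction. The call was lost under DESeq2 (adjusted p = 0.071) and in 9 of the 12 fits with a library left out, and ran from adjusted p = 0.00046 to 0.12 over those fits. All 7 copies had a positive change in this interval, except VIT_16s0100g01000 without seedless replicate 1 of stage 4, at -0.12. The median change of the 7 was 1.18 log2 units, against 0.0018 over all tested genes.

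Averaged over seedless and seeded berries, VIT_16s0100g01100 was the copy that rose at both steps of ripening in skin. Over the stages it had means of 3.18 ± 1.16, 6.02 ± 4.97 and 19.7 ± 8.37 CPM in seedless skin and 2.63 ± 0.408, 8.01 ± 1.23 and 13.5 ± 5.47 CPM in seeded skin (SD, n = 3 each). It rose by 1.27 ± 0.39 log2 units from stage 1 to stage 3 (SE; edgeR adjusted p = 0.023) and by 1.27 ± 0.29 from stage 3 to stage 4 (edgeR adjusted p = 0.0011). It was 1 of 7 copies called higher in the first step, against 10.1% of all tested genes, and 0 were lower. The first call was lost in 5 of 12 fits with a library left out (adjusted p up to 0.099), and the second in 0 of 12 (up to 0.0050).

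VIT_16s0100g01200 was the other of 2 copies called from stage 3 to stage 4, where 15.6% of all tested genes rose, at 1.13 ± 0.38 log2 units (SE; edgeR adjusted p = 0.026). It averaged 3.73 ± 3.63 and 19.6 ± 7.13 CPM in seedless skin at these stages, and 8.06 ± 2.96 and 7.17 ± 1.89 CPM in seeded skin (SD, n = 3 each). The mean was higher at stage 4 than at stage 3 in seedless skin and not in seeded skin. The call was lost under DESeq2 (adjusted p = 0.051) and in 5 of 12 fits with a library left out. No copy was called lower in either step. VIT_16s0100g01170 had means of 5.45 ± 3.35, 3.41 ± 1.15 and 0.686 ± 0.492 CPM over the stages in seeded skin and 0.717 ± 0.958, 1.67 ± 1.48 and 1.73 ± 0.928 CPM in seedless skin (SD, n = 3 each), and from stage 3 to stage 4 its averaged change was -1.07 ± 0.53 (SE; edgeR adjusted p = 0.12).

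The makeup of the family's reads differed between stages and treatments. VIT_16s0100g01100 took 16.5%, 18.2% and 24.1% of the pooled member reads of seedless skin at stages 1, 3 and 4, and 3.06%, 19.0% and 31.2% of those of seeded skin. VIT_16s0100g01190 took 6.19%, 9.32% and 5.03% in seedless and 18.1%, 5.19% and 4.29% in seeded skin. VIT_16s0100g01200 took 11.3%, 11.4% and 24.0% in seedless and 8.47%, 19.0% and 15.9% in seeded skin. Seeded skin at stage 1 and seedless skin at stage 4, the groups with the highest sums, thus had different makeups: VIT_16s0100g01100 ran from 1.97% to 8.82% of a library in the first and from 17.0% to 33.1% in the second, and VIT_16s0100g01190 from 12.2% to 23.6% and from 2.95% to 9.89%. These groups differ in both treatment and stage, and no test was made between them.

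**Figure D5:**
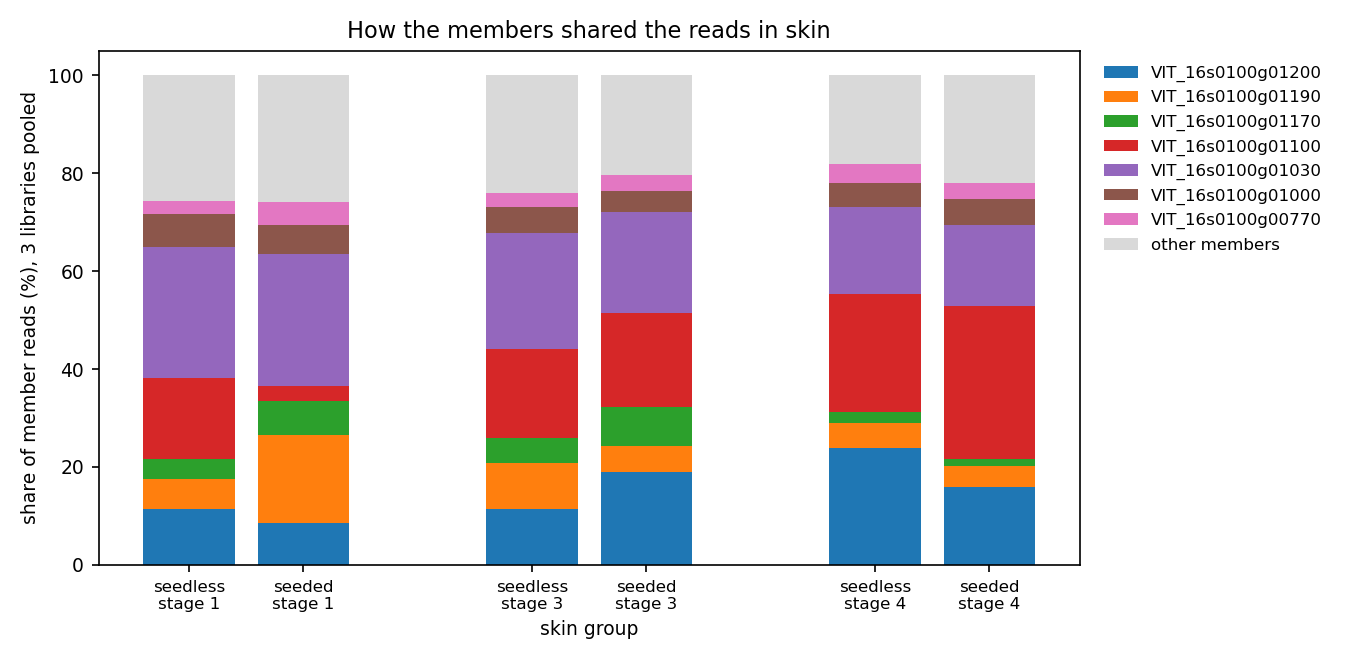
Share of the pooled member reads in each skin group (%, 3 libraries together) taken by the 7 tested members and by all other members. VIT_16s0100g01190 stood at 18.1% in seeded skin at stage 1 and at most 9.32% in the other groups, and VIT_16s0100g01100 at 3.06% there and at least 16.5% elsewhere.

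Skin was set against flesh in one fit of all 36 libraries, averaged over the treatments. The 7 tested copies passed the filter through their skin reads, so that each was called higher in skin at every stage, where 20.1%, 22.7% and 23.3% of 14841 tested genes were, is no support for a tissue difference beyond the counts above. Over all stages VIT_16s0100g01030 had 674 reads in skin and 13 in flesh, a ratio of 55.4 (95% exact interval 32.2 to 105). VIT_16s0100g01100 had 672 and 21 reads, a ratio of 34.2 (22.2 to 55.6), and VIT_16s0100g01200 had 572 and 23, a ratio of 26.6 (17.5 to 42.2). VIT_16s0100g01190 had 238 and 8 reads, a ratio of 31.8 (15.9 to 74.4), with 6 of the 8 flesh reads in the one seeded library of stage 1 that held any.

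The rarer tested copies had the same direction. VIT_16s0100g01000 had 169 reads in skin and 4 in flesh, and VIT_16s0100g01170 had 134 and 2, a ratio of 71.5 (95% exact interval 19.4 to 597). VIT_16s0100g00770 had 117 reads in skin and 0 in flesh, which is at least 41.6-fold higher against a floor of 3 reads over the flesh libraries. For VIT_16s0100g01030 the fitted differences were 5.96 ± 0.69, 5.87 ± 0.54 and 5.43 ± 0.49 log2 units at the 3 stages (SE). At stage 1 this copy had 0 reads in seedless and 2 in seeded flesh. The stage 1 difference thus had no base in seedless flesh, and ran from 5.74 to 8.33 with a library left out. The fitted differences are given for their size only, since this copy too passed the filter through its skin reads. Leaving out replicate 1 of seedless skin lost the stage 1 calls of VIT_16s0100g00770 and VIT_16s0100g01170 (edgeR adjusted p = 1 and 0.055).

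Whether the difference between seedless and seeded berries was unequal in skin and flesh was tested for the 7 copies at each stage. edgeR called 0 of 7 and DESeq2 0 of the 3 to which it gave an adjusted p. At an unadjusted p below 0.05 edgeR had 0 copies at stage 1, 1 at stage 3 and 2 at stage 4. A copy with 0 flesh reads at a stage could not be called, since its difference in flesh had no base. These were VIT_16s0100g00770 at every stage, VIT_16s0100g01170 at stages 1 and 3, and VIT_16s0100g01000 and VIT_16s0100g01190 at stage 3. Their SE ran from 53.3 to 13497 log2 units, and for them the test decides nothing. Of all tested genes, 2.18%, 0.451% and 0.128% were called at the adjusted threshold, which compares with the 0 calls only. The share of all genes at an unadjusted p is not given here. With no filter, edgeR called VIT_16s0100g01200 at stage 4 (adjusted p = 0.031), which had 281 reads in seedless and 85 in seeded skin, and 4 in seedless and 13 in seeded flesh. Flesh held at most 23 reads of any copy over the 18 libraries.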

How the data were processed

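Raw counts per gene were deposited by the authors as one table of 36 libraries and 30661 rows. Per the submitters' processing notes, reads passed through fastp 0.20.0, HISAT2 2.2.1 and featureCounts. The sources used here do not give the genome build, strandedness or how reads matching several copies were handled. Columns were matched to samples by the labels, and 0 per-sample columns were left unused.

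Counts were tested with edgeR 4.0.16 (R 4.3.3; TMM, filterByExpr with a minimum count of 10, robust quasi-likelihood F-test, Benjamini-Hochberg over all tested genes, threshold 0.05), in separate fits of the 18 skin and 18 flesh libraries and in one fit of all 36 for skin against flesh. SE is the log2 fold change divided by the square root of F. The script was tested on simulated data. CPM are scaled by TMM. Ratios of pooled reads have exact 95% intervals, and the floor for 0 reads is 3 counts. Both cover counting error only.

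Skin and flesh libraries were paired by number, most clearly at stage 3, where all 6 same-numbered pairs correlated above 0.1 (0.132 to 0.221). Over all stages the own number was best in 18 of 18 pairs. This comes from the data and not the labels. The fit of all libraries treats them as independent, and the blocked fit is an alternative.

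Alternatives were DESeq2 1.42.0, its size factors in edgeR, no filter, thinning to 608901 counts, a replicate block and leaving out each library. The members and lists were chosen with earlier results of these data known. Named copies were the 5 most read of each array and, per comparison, the 2 called with the largest rise and fall; all others are accounted for by reads. Lists of pathway genes and tissue markers by product name could not be matched and give no result.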

Additional observations from a re-analysis of the deposited data

Results flagged for a closer look

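In skin, 3 interaction tests found the difference between seedless and seeded berries unequal between stages. From stage 1 to stage 3 it changed by 4.11 log2 units for VIT_16s0100g01190 (edgeR adjusted p = 0.0012) and by 1.94 for VIT_16s0100g01030 (edgeR adjusted p = 0.025). From stage 3 to stage 4 it changed by 2.57 for VIT_16s0100g01200 (edgeR adjusted p = 0.042). Seeded skin at stage 1 was the shallowest skin group, at 1.12 to 2.38 M counts, and the part of depth in the result of VIT_16s0100g01190 was not tested, since it did not pass the filter in thinned counts. For VIT_16s0100g01030 the change was 1.80 in thinned counts (edgeR adjusted p = 0.24).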

How the results depend on the processing

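No called value changed sign under any alternative run, and the size factors of DESeq2 in edgeR moved no count of called members by over 1.5 times. Thinning left 2 members tested: 1 was called in skin at stage 1, 0 in either change of the difference, 0 from stage 1 to stage 3, 1 from stage 3 to stage 4, and 2 between skin and flesh at each stage. Without a filter, 35 members were tested in skin, and seedless against seeded skin gave 9, 1 and 2 calls at stages 1, 3 and 4. The shares of all genes called in the alternative fits are not given here. Flesh without a filter gave 1 at stage 1 (VIT_16s0100g01190, lower in seedless). Skin against flesh then gave 15 at stage 3 and 17 at stage 4. At stage 1 it gave the 7 copies of the main fit with VIT_16s0100g00860 and VIT_16s0100g00950. Its interaction with treatment gave 1 at stage 4. DESeq2 called 0 for the change from stage 3 to stage 4 and 1 for the averaged step between them. With 1 library left out, calls between seedless and seeded skin ran from 2 (without seeded replicate 3) to 6 at stage 1, from 0 to 2 at stage 3 and from 0 to 1 at stage 4. They ran from 1 to 2 and from 0 to 2 for the changes of the difference, from 0 to 1 and from 1 to 2 for the averaged steps, and from 7 to 9, 8 to 9 and 8 to 10 for skin against flesh. The filter was run again in each fit with a library left out, and the smaller group loosened it, so members outside the 7 could be tested. Counts above 7 include such members, and the ranges need not cover the same members. The cause of the other shifts was not tested. Over 9307 genes, same-numbered libraries of seedless and seeded berries correlated at -0.11 to 0.21, with their own number best in 11 of 18. Those of different stages correlated at -0.13 to 0.20, with their own number best in 16 of 36. These values do not settle whether numbers pair treatments or stages. Same-numbered libraries of skin and flesh correlated above 0.1 in 3, 6 and 4 of 6 pairs at stages 1, 3 and 4, with their own number best in 18 of 18. With a replicate block, 5 members were called in skin at stage 1, VIT_16s0100g01000 among them (edgeR adjusted p = 0.043), and no other count changed, with 7 still called between skin and flesh at each stage. In the skin fit this block was the replicate number across treatments and stages, where pairing by number was not settled. Depth limits flesh, where 100 reads carry the family.

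Of the values that did not pass, 28 had another sign under an alternative, 24 of them with a library left out. In thinned counts, the log2 difference of seedless and seeded skin at stage 3 was 0.13 for VIT_16s0100g01030, and the skin minus flesh interaction at stage 1 was -1.65 for VIT_16s0100g01030 and 1.23 for VIT_16s0100g01100 (0.66 under DESeq2). With a library left out, the seedless minus seeded difference in skin ran from -0.062 to 0.41 for VIT_16s0100g01100 at stage 1. At stage 3 it ran from -0.42 to 0.40 for VIT_16s0100g01000, -0.62 to 0.028 for VIT_16s0100g01030 and -0.019 to 0.89 for VIT_16s0100g01190, and at stage 4 from -0.15 to 0.97 for VIT_16s0100g01000. Its change ran from -0.51 to 1.44 for VIT_16s0100g01200 between stages 1 and 3 and from -0.12 to 1.05 for VIT_16s0100g01000 between stages 3 and 4. The averaged steps ran from -0.069 to 0.89 for VIT_16s0100g01200 (stage 1 to 3) and -0.014 to 0.43 for VIT_16s0100g01190 (stage 3 to 4). The interaction with tissue at stage 1 ran from -4.65 to 1.84 for VIT_16s0100g01000, -2.10 to 3.10 for VIT_16s0100g01030, -2.9986 to 0.27 for VIT_16s0100g01100 and -3.64 to 3.31 for VIT_16s0100g01190. At stage 3 it ran from -0.42 to 0.40 for VIT_16s0100g01000, -0.023 to 0.89 for VIT_16s0100g01190 and -0.70 to 1.71 for VIT_16s0100g01200, and at stage 4 from -1.78 to 1.16 for VIT_16s0100g01100 and -0.38 to 2.94 for VIT_16s0100g01190.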
